A study of Mus musculus with 2 samples.

Results

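Genes for secreted growth factors that drive wound repair and vessel growth were followed in macrophages of the mouse peritoneal cavity. The set was Igf1, Vegfa, Vegfb, Vegfc, Pdgfa, Pdgfb, Pdgfc, Hbegf, Hgf and Grn. Members were the probe sets that the platform annotation ties to exactly 1 gene of that set, which gave 24 probe sets for the 10 genes, out of 45101 probe sets and 18193 named genes on the array. A probe set is a group of short probes that together give 1 signal for a transcript.

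The elicited array held RNA from peritoneal macrophages of C57BL/6J mice given 1 mL of 3% thioglycollate broth into the peritoneum 3 days earlier, a sterile irritant that recruits leukocytes. The resident array held RNA from peritoneal macrophages of C57BL/6J mice that were not injected. In both groups mice were 8 weeks old, cells were plated for 2 h before loose cells were washed away, and 100 ng of total RNA was labelled for an Affymetrix 3' expression array. The series text mentions overnight culture instead, which leaves the culture time uncertain, and how many mice were pooled for an array is not stated in the sources used here. There was 1 array per group, so differences could not be tested and the small number of arrays limits how precise any value can be.

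Macrophages make growth factors that act on neighbouring cells during tissue repair. The VEGF and PDGF ligands share a cystine-knot fold and signal through receptor tyrosine kinases on endothelial cells and on fibroblasts and smooth muscle. IGF1 and HGF act through the kinases IGF1R and MET, HB-EGF is shed from the cell surface and activates the EGF receptor, and progranulin, the product of Grn, is both secreted and carried to lysosomes, where it is cut into granulins.

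Values are MAS5 signals, linear intensities in arbitrary units, and are compared within a probe set only. Signals at or below 82.2 were taken as not above background. That floor is the 95th percentile of the 252 values of gene families thought to be silent in macrophages, such as olfactory receptors. Lower signals were raised to it, so that a fold against such an array is a bound. All 10 genes cleared the floor somewhere, 8 of them on both arrays, the exceptions being Vegfc and Pdgfc, which were above it on the elicited array only. The 12 macrophage markers examined were above the floor on both arrays, with a summed signal of 231013 on the elicited and 231097 on the resident array. Single markers differed within that sum, with 1 of the 12 past 2-fold upwards and 3 downwards. Fcgr1 was 2.55-fold higher, Itgam 2.99-fold lower, Cd14 2.73-fold lower, and Marco, a scavenger receptor, 37.9-fold lower (431 on the elicited and 16317 on the resident array). The spread between probe sets of the same gene, the only spread these arrays hold, had an SD of 0.48 on the log2 scale (1.40-fold) over 4465 genes.

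Vegfc and Pdgfc were the 2 genes at least 2-fold higher on the elicited array, by the probe set whose log2 signal averaged highest, and none was at least 2-fold lower. Across all 11499 genes measured above the floor on either array, 8.04% passed 2-fold upwards and 11.8% downwards. The 2 of 10 are a larger share than 8.04%, in a list too short for that share to be called particular to it. The median log2 ratio, elicited minus resident, was 0.51 over the 10 genes and -0.03 over all 11499. These medians moved with the scaling, to 0.82 over the 10 genes and 0.25 over all genes with equal medians, and to 0.14 over the 10 genes and -0.36 over all genes on the spiked hybridisation controls. Igf1 had no single direction: 2 of its 4 probe sets were more than 2-fold lower on the elicited array, while the probe set that represents the gene was 1.11-fold higher. The balance over all genes depends on scaling, since among genes past 2-fold the share that was higher on the elicited array was 40.5% as deposited, 66.0% with equal medians and 18.2% when scaled on the spiked hybridisation controls.

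**Figure D1:**
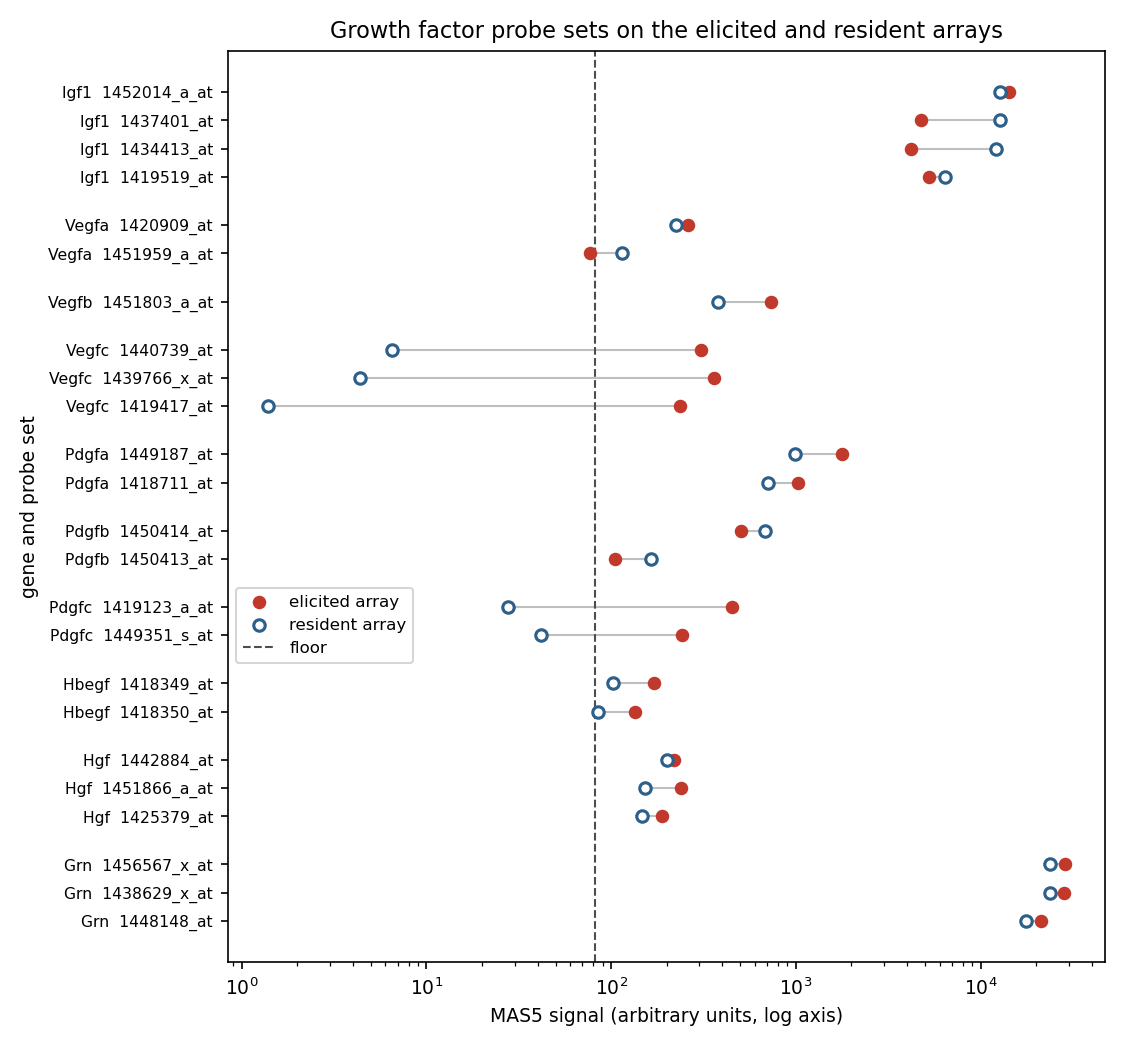
Signal of each of the 24 growth factor probe sets (rows) on the elicited array (filled red) and the resident array (open blue), on a log axis in arbitrary units, with the floor of 82.2 as a dashed line. The 5 probe sets of Vegfc and Pdgfc lie right of the floor on the elicited array and left of it on the resident array, and 2 of the 4 Igf1 probe sets are clearly lower on the elicited array.

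The promoters of Vegfc, Pdgfc and Igf1 are shown because these are the genes with a probe set more than 2-fold apart. Promoter sequences came from RefSeq on GRCm38.p6, and 8 of the 10 genes had a promoter among those kept. A chromosome was left out of this selection, so a missing gene need not lack a RefSeq promoter. Pdgfb and Hbegf had none among those kept and are only named. The 250 bases before the listed start, 5′ to 3′ on the plus strand, lie at chr8:54077282-54077531 for Vegfc, at chr3:81036166-81036415 for Pdgfc and at chr10:87860861-87861110 for Igf1. Capitals mark matches to any of the motifs described after the sequences.
Vegfc: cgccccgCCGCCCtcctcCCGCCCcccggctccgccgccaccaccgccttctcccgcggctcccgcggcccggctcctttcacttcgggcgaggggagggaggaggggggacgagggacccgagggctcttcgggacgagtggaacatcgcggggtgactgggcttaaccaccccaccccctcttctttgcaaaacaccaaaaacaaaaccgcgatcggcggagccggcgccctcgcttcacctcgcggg
Pdgfc: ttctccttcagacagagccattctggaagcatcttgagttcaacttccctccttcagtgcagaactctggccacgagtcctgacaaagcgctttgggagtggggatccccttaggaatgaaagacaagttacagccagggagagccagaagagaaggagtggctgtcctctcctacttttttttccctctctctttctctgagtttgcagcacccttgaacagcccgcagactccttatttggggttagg
Igf1: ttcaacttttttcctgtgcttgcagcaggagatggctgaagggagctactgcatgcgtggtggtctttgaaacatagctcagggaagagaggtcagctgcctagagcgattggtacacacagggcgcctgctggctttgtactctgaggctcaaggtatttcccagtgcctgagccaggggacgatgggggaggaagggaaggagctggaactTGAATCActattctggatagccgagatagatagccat

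Searched on both strands were the SP1 box GGGCGG, the AP-1 motif TGANTCA, the core of hypoxia-inducible factor sites ACGTG, the E-box CACGTG, which contains that core, and TATAAA. Vegfc held 2 SP1 boxes and no other match, Igf1 held 1 AP-1 match and no other, and Pdgfc held none. The N in TGANTCA stands for any base, which makes the AP-1 search loose, and the Igf1 match has an A there. Of the 32851 windows of the same length in the table, 32.7% held an SP1 box, 6.75% an AP-1 match, 16.6% the hypoxia core, 6.02% the E-box and 12.4% TATAAA. The Vegfc window was 71.6% G and C with 30 CpG pairs, and 7.35% of all windows were as rich or richer. The Pdgfc window was 50.8% G and C with 3 CpG pairs, near the median of 52.4% over all windows, and the Igf1 window was 52.8% with 5. Both genes that were at least 2-fold higher thus had promoters of unlike composition. A match describes letters in this window and does not show that a factor binds there.

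Vegfc encodes the ligand that drives growth of lymphatic vessels through VEGFR3. Its probe set 1440739_at read 305 on the elicited and 6.48 on the resident array. The probe set 1439766_x_at read 362 on the elicited and 4.39 on the resident array, and 1419417_at read 235 on the elicited and 1.38 on the resident array. All 3 probe sets were thus well above the floor after elicitation and far below it in resident cells. The elicited signal was at least 3.71-fold, at least 4.41-fold and at least 2.86-fold higher in that order. The suffix x marks a probe set with probes that can bind other transcripts, but the other 2 probe sets carry no such mark.

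Pdgfc encodes PDGF-CC, which is secreted in a latent form, activated when a protease removes its CUB domain, and signals mainly through PDGFRα. Its probe set 1419123_a_at read 452 on the elicited and 27.6 on the resident array, at least 5.50-fold higher. The probe set 1449351_s_at, whose suffix s marks probes shared with other transcripts, read 242 on the elicited and 41.8 on the resident array, at least 2.95-fold higher. As for Vegfc, the transcript was measured above background on the elicited array and not on the resident array.

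Both genes passed 2-fold under each of the 5 scalings of the arrays. The log2 ratios ran from 1.71 to 2.11 for Vegfc and from 2.28 to 2.63 for Pdgfc. Under each scaling the resident signals stayed below the same floor and were raised to it, so only the elicited signal could move these ratios. Their narrow range is partly a product of the floor. A stricter floor, the 99th percentile of the silent families (a signal of 174), took the bound for Vegfc to a log2 ratio of 0.81, below 2-fold, and that for Pdgfc to 1.37.

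Markers of mesothelium and fibroblasts, cells that line and support the cavity wall, were mostly higher on the elicited array beside these 2 genes. Of 16 such markers, 12 were above the floor on the elicited and 4 on the resident array, 8 were at least 2-fold higher and none at least 2-fold lower. Their summed signal was 12908 on the elicited and 908 on the resident array. Col1a2, a chain of type I collagen, read 5452 on the elicited and 166 on the resident array, 32.9-fold higher. The mesothelial genes Upk3b (244 on the elicited and 9.56 on the resident array), Lrrn4 (162 on the elicited and 1.38 on the resident array) and Wt1 (156 on the elicited and 13.7 on the resident array) had the same pattern of presence as Vegfc and Pdgfc. By the stricter floor of 174, Lrrn4 and Wt1 were not above background on either array. The probe sets read for Upk3b and Wt1 have the suffix s. Thy1 went the other way, with 67.8 on the elicited array, below the floor, and 97.9 on the resident array. Msln, Lum and Pdgfrb were at or below the floor on both arrays. Pdgfra and Pdgfrb also stand on the receptor list described later. In RNA from a mixed plate, a change in the number of cells of a type and a change in RNA per cell cannot be told apart. The part of these cells in the values of Vegfc and Pdgfc was not tested.

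**Figure D2:**
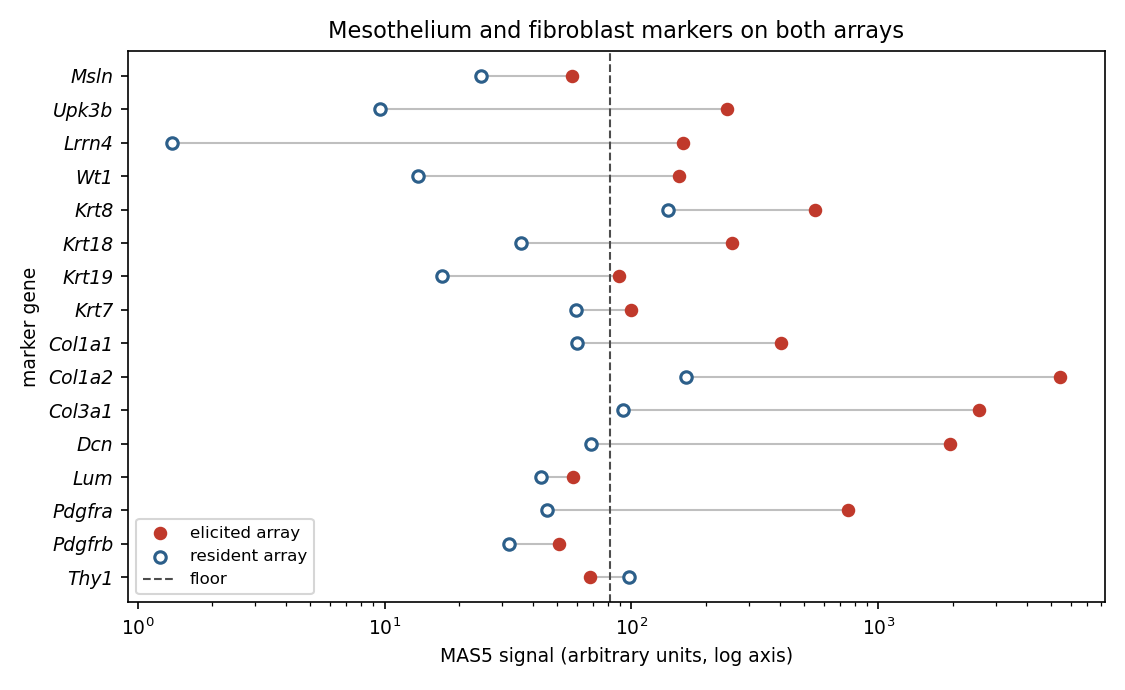
Signal of 16 mesothelium and fibroblast markers (rows) on the elicited array (filled red) and the resident array (open blue), on a log axis in arbitrary units, with the floor of 82.2 as a dashed line. On the elicited array 12 markers lie above the floor and on the resident array 4 do.

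Markers of other cells did not share 1 direction. Of 8 endothelial markers, of which Kdr, Tek and Tie1 are also receptors of interest, Cdh5, Tek, Tie1 and Emcn stayed at or below the floor on both arrays. Vwf, which encodes von Willebrand factor, was at least 15.5-fold higher on the elicited array (1276 on the elicited and 76.0 on the resident array), and Pecam1 read 8.59 on the elicited and 246 on the resident array, at least 3.00-fold lower. The summed signal of this list was 1608 on the elicited and 608 on the resident array. B cell markers summed to 879 on the elicited and 22485 on the resident array, with 7 of the 8 above the floor at least 2-fold lower. Mast cell markers summed to 145 on the elicited and 2503 on the resident array, with 5 of the 5 above the floor at least 2-fold lower. Neutrophil markers summed to 7399 on the elicited and 10708 on the resident array, with 2 of the 4 above the floor at least 2-fold lower. The other 6 of the 10 neutrophil markers were at or below the floor on both arrays. S100a8 was 1.28-fold higher, with 4675 on the elicited and 3663 on the resident array, by a probe set with the suffix s. The part of these cells in the growth factor values was not tested.

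The other VEGF ligands differed less. Vegfa encodes the main driver of blood vessel sprouting and is a classical target of hypoxia-inducible factors. Its probe set 1420909_at read 262 on the elicited and 223 on the resident array, 1.17-fold higher. Its probe set 1451959_a_at read 76.7 on the elicited array, below the floor, and 115 on the resident array, at least 1.39-fold lower. The 2 probe sets pointed opposite ways, the second with a bound only, and the first turned to a log2 ratio of -0.14 when scaled on the hybridisation controls, so no direction can be given for Vegfa. Vegfb, a ligand of VEGFR1 linked to fatty acid uptake and cell survival, had a single probe set. It read 733 on the elicited and 380 on the resident array, 1.93-fold higher and just inside the 2-fold limit. Its log2 ratio stayed positive under each of the 5 scalings, from 0.57 on the hybridisation controls to 1.25 with equal medians.

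The classical PDGF chains went in opposite directions as deposited. Pdgfa encodes the A chain, a mitogen of mesenchymal cells that binds PDGFRα. Its probe set 1449187_at read 1780 on the elicited and 991 on the resident array, and 1418711_at read 1033 on the elicited and 706 on the resident array. Both were higher on the elicited array, by 1.80-fold and 1.46-fold. Pdgfb encodes the B chain, which recruits pericytes to vessels and binds both PDGF receptors. Its probe set 1450414_at read 506 on the elicited and 682 on the resident array, and 1450413_at read 105 on the elicited and 163 on the resident array. Both were lower on the elicited array, by 1.35-fold and 1.56-fold. None of these 4 probe sets reached 2-fold as deposited. Over the 5 scalings, the log2 ratio of the representing probe set stayed between 0.47 and 1.15 for Pdgfa and between -0.80 and -0.12 for Pdgfb.

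Platelets carry PDGF, so their markers were set beside these values. Of 7 measured platelet and megakaryocyte markers, none was at least 2-fold higher and 1 was at least 2-fold lower. That was Ppbp, a platelet chemokine gene, with 23.2 on the elicited and 596 on the resident array. Pf4, which macrophages can also express, read 15376 on the elicited and 19904 on the resident array. The summed signal of the list was 16010 on the elicited and 21093 on the resident array, Gp1bb was not above the floor on either, and the part of platelets in the Pdgfb values was not tested.

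Igf1 encodes insulin-like growth factor 1, a trophic factor that macrophages supply to healing muscle and other tissues. Its probe set 1434413_at read 4215 on the elicited and 12088 on the resident array, 2.87-fold lower. The probe set 1437401_at read 4764 on the elicited and 12814 on the resident array, 2.69-fold lower. In contrast, 1452014_a_at read 14242 on the elicited and 12811 on the resident array, 1.11-fold higher, and 1419519_at read 5292 on the elicited and 6425 on the resident array, 1.21-fold lower. All 8 signals were far above the floor. The 4 probe sets were thus split into 2 that were clearly lower and 2 near equal.

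The first pair of Igf1 probe sets was more than 2-fold lower on the elicited array under each of the 5 scalings, by 2.32-fold to 3.71-fold for 1434413_at and 2.17-fold to 3.48-fold for 1437401_at. The other pair changed sign with scaling, from -0.24 to 0.46 on the log2 scale for 1452014_a_at and from -0.65 to 0.03 for 1419519_at. The 4 log2 ratios spanned 1.67 with an SD of 0.83, wider than the SD of 0.48 between probe sets of a gene in general. Of the 430 genes with 4 probe sets that all cleared the floor on both arrays, 45 (10.5%) spanned at least as much, and the median span was 0.84. The array annotation ties 1419519_at to a RefSeq transcript of Igf1 and the other 3 to other sequence records. The suffix a marks a probe set that reads several transcripts of 1 gene. Which stretch of the transcript each probe set reads was not used here, and a difference between transcript forms was not tested.

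**Figure D3:**
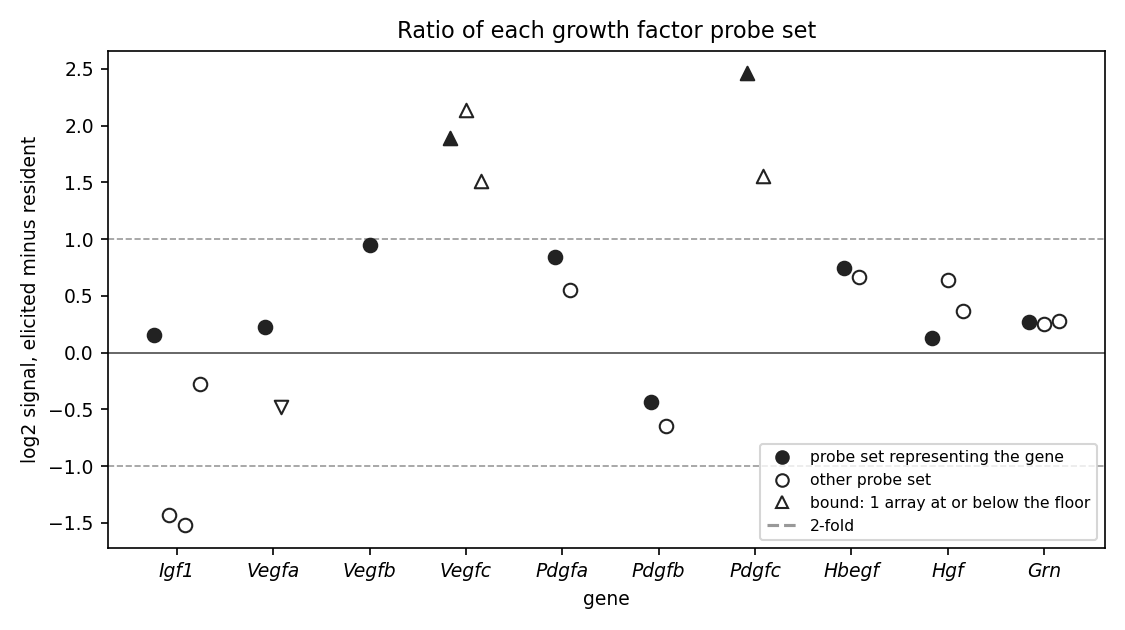
Log2 ratio, elicited minus resident, of each growth factor probe set by gene. Filled symbols mark the probe set that represents the gene, triangles mark bounds against the floor of 82.2, and dashed lines mark 2-fold. Probe sets of Vegfc and Pdgfc lie above 1, those of Grn almost coincide near 0.27, and those of Igf1 spread from -1.52 to 0.15.

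Grn gave the closest agreement. Its probe set 1456567_x_at read 28629 on the elicited and 23756 on the resident array, 1438629_x_at read 28179 on the elicited and 23705 on the resident array, and 1448148_at read 21316 on the elicited and 17603 on the resident array. These were 1.21-fold, 1.19-fold and 1.21-fold higher, with log2 ratios that spanned 0.03 in all. This small excess reversed under 3 of the other scalings, with log2 ratios of the representing probe set of -0.05 with quantile normalization, -0.10 on the hybridisation controls and -0.20 with loess, against 0.58 with equal medians. A direction can therefore not be given for Grn.

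Hbegf and Hgf were dim on both arrays. Hbegf read 171 on the elicited and 102 on the resident array by 1418349_at, and 134 on the elicited and 84.9 on the resident array by 1418350_at, 1.68-fold and 1.58-fold higher. On the resident array alone, the 95th percentile of the silent families was 92.7, so 1 of the resident Hbegf values was not above background by that measure. The representing probe set of Hbegf had log2 ratios from 0.37 on the hybridisation controls to 1.24 with quantile normalization. Hgf, the ligand of MET, a mitogen for epithelial cells known mainly from fibroblasts, read 220 on the elicited and 201 on the resident array by 1442884_at. The probe set 1451866_a_at read 239 on the elicited and 153 on the resident array, and 1425379_at read 189 on the elicited and 147 on the resident array. All 3 were higher on the elicited array, by 1.09-fold, 1.56-fold and 1.29-fold, and the first turned to a log2 ratio of -0.24 on the hybridisation controls.

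**Figure D4:**
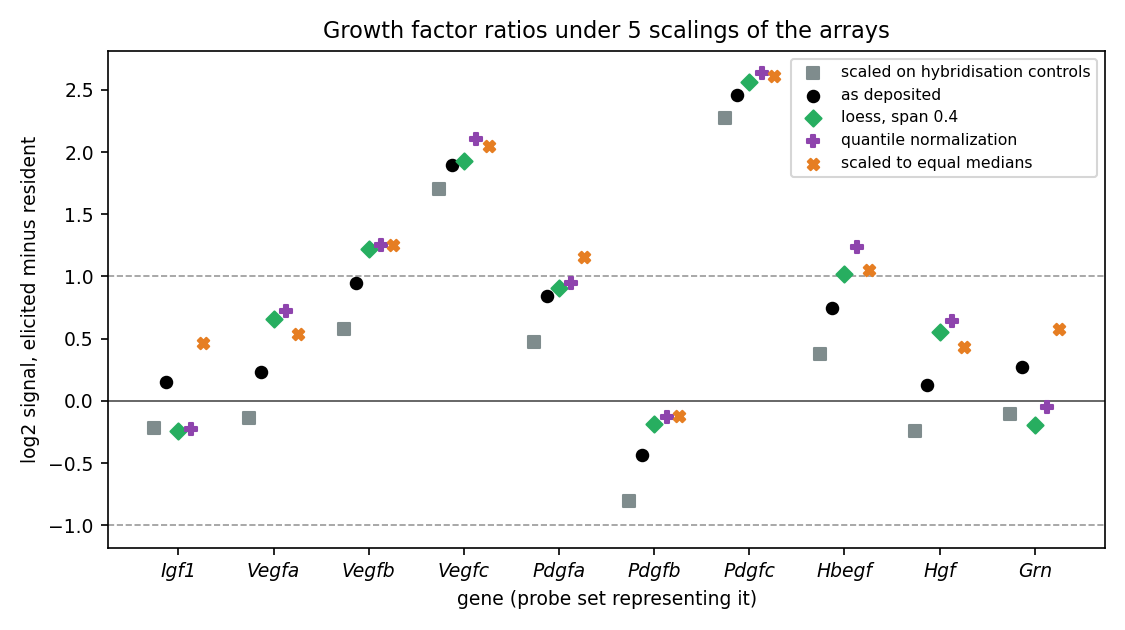
Log2 ratio, elicited minus resident, of the probe set that represents each growth factor gene, under 5 scalings of the arrays (symbols), with 2-fold as dashed lines. Vegfc and Pdgfc lie above 1 under all 5, with the resident signal of both held at the floor. Vegfb and Hbegf cross 1 under 3 of the scalings and Pdgfa under 1, and Igf1, Vegfa, Hgf and Grn change sign.

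Vegfc and Pdgfc are bounds and have no order between them. Below these 2, the order of the ratios as deposited was Vegfb, Pdgfa, Hbegf, Grn, Vegfa, Igf1, Hgf and Pdgfb. Vegfb, Pdgfa and Hbegf (0.95, 0.85 and 0.74) lie closer together than the SD between probe sets of a gene, as do Grn, Vegfa, Igf1 and Hgf (0.27, 0.23, 0.15 and 0.13).

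Related ligands were mostly not above background. Of 24 measured genes for other VEGF, PDGF, IGF, EGF, FGF, TGF-β, angiopoietin and matricellular ligands, 15 cleared the floor on neither array, among them Pgf, Pdgfd, Igf2, Egf, Btc, Ereg and Fgf2. Of the other 9, 4 were at least 2-fold higher on the elicited array and 1 was at least 2-fold lower. Over all genes the shares were 8.04% and 11.8%, and this list is too short for its share to be called particular to it. The 9 genes had a median log2 ratio of 0.79 against -0.03 over all genes. That median is the value of Vegfd, a bound that depends on the floor. Ang, the angiogenic ribonuclease angiogenin, read 1515 on the elicited and 216 on the resident array, 7.02-fold higher. The 3 probe sets of Ang had log2 ratios between 1.33 and 2.94. The one read here has the suffix s, which marks probes shared with other genes, so its identity is uncertain. The matricellular genes Ccn1 (450 on the elicited and 92.8 on the resident array) and Ccn2 (711 on the elicited and 147 on the resident array) were 4.86-fold and 4.84-fold higher. Angpt2, the angiopoietin that loosens vessels, was at least 4.56-fold higher (375 on the elicited and 33.4 on the resident array) and is named to complete the count. Ccn1 and Angpt2 also had a probe set at or below the floor on both arrays, which gives no ratio. Tgfb2 was 31.9-fold lower, with 131 on the elicited and 4169 on the resident array. Vegfd, the nearest relative of Vegfc, read 142 on the elicited and 35.0 on the resident array, at least 1.73-fold higher.

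**Figure D5:**
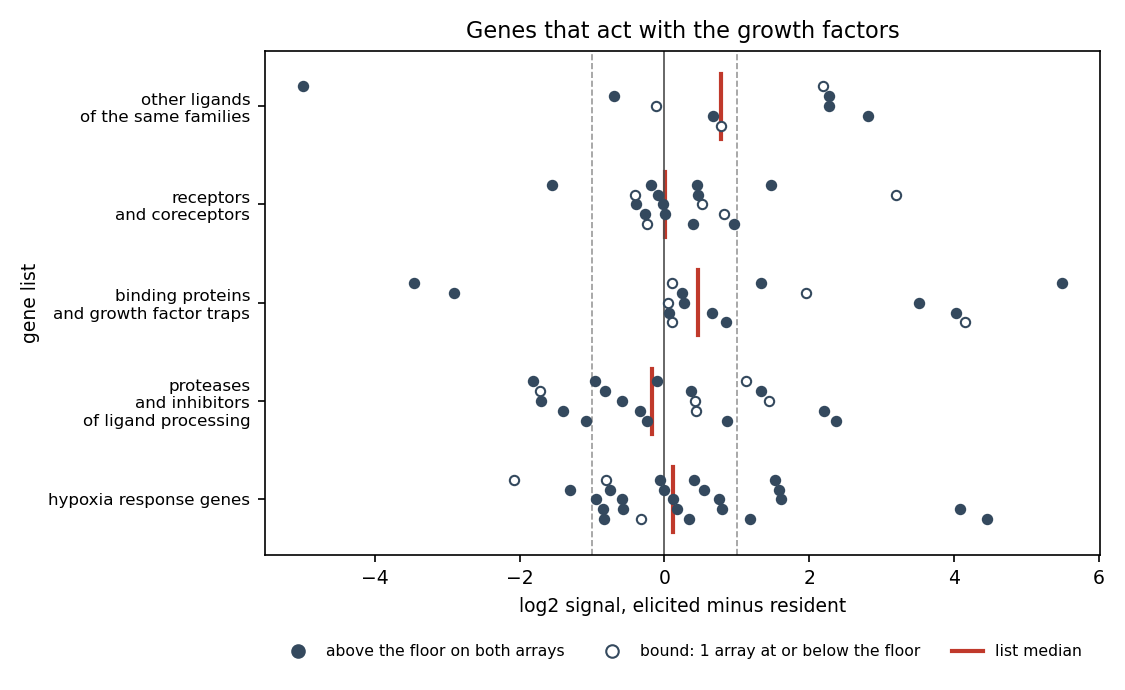
Log2 ratio, elicited minus resident, of genes in 5 lists of genes that act with the growth factors. Filled points were above the floor on both arrays, open points are bounds against the floor, red bars are list medians and dashed lines mark 2-fold. The medians run from -0.17 for proteases and inhibitors to 0.79 for other ligands, where the median falls on a bound.

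Receptors were set beside their ligands. Of 22 measured receptor and coreceptor genes, 17 cleared the floor on 1 array or both, 2 passed 2-fold upwards and 1 downwards, with a median log2 ratio of 0.00. Among all genes above the floor, 8.04% passed upwards and 11.8% downwards. Pdgfra, the receptor for PDGF-AA and PDGF-CC, was at least 9.19-fold higher (755 on the elicited and 45.7 on the resident array), and it is also on the fibroblast marker list. Pdgfrb did not clear the floor on either array (50.9 on the elicited and 32.0 on the resident array). Nrp1, a coreceptor for VEGF that macrophages express, read 7055 on the elicited and 2545 on the resident array, 2.77-fold higher, and its 4 probe sets had log2 ratios between 0.04 and 1.47. The VEGF receptor genes were dim. Kdr read 145 on the elicited and 61.0 on the resident array, and Flt1 read 118 on the elicited and 11.8 on the resident array. Flt4, the receptor of VEGF-C, read 73.9 on the elicited and 97.3 on the resident array. The 2 probe sets of Flt4 pointed opposite ways, with log2 ratios of -0.24 and 0.37, so no direction can be given for it. Insr, the insulin receptor gene, was 2.93-fold lower (512 on the elicited and 1498 on the resident array). The receptors Igf1r (206 on the elicited and 270 on the resident array), Met (606 on the elicited and 459 on the resident array), Egfr (282 on the elicited and 299 on the resident array) and Sort1, the sorting receptor that clears progranulin (2690 on the elicited and 3058 on the resident array), were within 2-fold by the probe set that represents each. The 5 probe sets of Igf1r had log2 ratios between -1.55 and 0, and 2 of them were more than 2-fold lower. Igf1r, Pdgfra and Insr also had at least 1 probe set at or below the floor on both arrays, which gives no ratio.

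Genes for binding proteins and traps of these factors held large differences in both directions. Among 16 above the floor, 6 passed 2-fold upwards and 2 downwards, with a median log2 ratio of 0.47. The share over all genes was 8.04% upwards and 11.8% downwards, so the downward count of this list is near that share. Sparc, which binds PDGF and VEGF, was 45.1-fold higher (4070 on the elicited and 90.2 on the resident array), although its resident signal was below the 92.7 of the silent families on that array. The log2 ratios of the 3 Sparc probe sets lay between 0.59, a bound, and 5.50. Htra1, a secreted serine protease with a domain like that of IGF-binding proteins, was at least 17.7-fold higher (1457 on the elicited and 66.2 on the resident array). Sdc1, the proteoglycan syndecan-1, whose heparan sulfate binds growth factors, was 16.3-fold higher (8870 on the elicited and 543 on the resident array). The lower ones were Thbs1, the vessel-restraining matrix protein thrombospondin-1 (1466 on the elicited and 16078 on the resident array, 11.0-fold), and Slpi, the inhibitor that shields progranulin from elastase (4838 on the elicited and 36105 on the resident array, 7.46-fold).

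Proteases and inhibitors that process growth factor precursors differed in both directions. Among 20 above the floor, 5 passed 2-fold upwards and 5 downwards, with a median log2 ratio of -0.17. The split was 6 upwards and 4 downwards with equal medians, and 3 upwards and 7 downwards on the hybridisation controls. As deposited, 8.04% of all genes above the floor passed 2-fold upwards and 11.8% downwards. Timp3, a matrix-bound inhibitor of sheddases, was 5.19-fold higher (495 on the elicited and 95.4 on the resident array). Adam8 was 4.61-fold higher (8481 on the elicited and 1838 on the resident array). Adam12, which can shed HB-EGF, was at least 2.72-fold higher (224 on the elicited and 59.6 on the resident array), with a log2 ratio of at least 0.05 by its other probe set. Adam9, Adam10 and Adam17, also on this list, were within 2-fold by the probe set that represents each. Another Adam17 probe set had a log2 ratio of -1.13, and Rhbdf1 was 2.12-fold lower. St14 and Hpn, the cell-surface proteases matriptase and hepsin that activate HGF, were lower. St14 read 94.7 on the elicited array, not far above the floor, and 334 on the resident array, 3.53-fold lower. Hpn read 82.2 on the elicited and 271 on the resident array, at least 3.29-fold lower. The inhibitor genes Spint1 (2.64-fold) and Spint2 (1.94-fold) of this list were lower as well. A net effect on HGF activation cannot be read from these values. Mmp9 was 3.26-fold lower, with 171 on the elicited and 558 on the resident array.

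The hypoxia response list was read beside Vegfa. Among 25 genes above the floor, 6 passed 2-fold upwards and 2 downwards, with a median log2 ratio of 0.12. Beside these, 8.04% of all genes passed upwards and 11.8% downwards. Hilpda, a lipid droplet protein, was 22.0-fold higher (2842 on the elicited and 129 on the resident array), Ndrg1 was 17.0-fold higher (1483 on the elicited and 87.1 on the resident array), and Car9, a carbonic anhydrase, was 3.07-fold higher (358 on the elicited and 117 on the resident array). Ddit4, an inhibitor of mTOR signalling, read 51.0 on the elicited and 348 on the resident array, at least 4.23-fold lower. Hif1a, the oxygen-regulated transcription factor subunit, was 2.48-fold lower (5332 on the elicited and 13212 on the resident array). Of its 4 probe sets, 3 had log2 ratios between -2.27 and -1.31 and the other was below the floor on both arrays. The other 17 of the 25 were within 2-fold, in both directions, among them Pgk1 (log2 ratio 0.80) and Kdm3a (-0.83). The Vegfa probe set above the floor on both arrays had a log2 ratio of 0.23, close to the list median. The resident signal of Ndrg1 was below the 92.7 of the silent families on that array, so its fold is uncertain. The probe set read for Ndrg1 has the suffix s, and its 5 probe sets had log2 ratios between 2.68 and 4.30.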

How the data were processed

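RNA was measured on 2 arrays, 1 for elicited and 1 for resident macrophages. The deposited values are linear signal intensities. The authors computed these intensities with MAS5 according to the submitters' processing notes, whose version, scaling target and detection calls are not stated in the sources used here. The mean after trimming 2% of probe sets at each end was 500.0 on both arrays, so the deposited table was used without further scaling. Spiked hybridisation controls had signals 1.29-fold higher on average on the elicited array, and higher there for 9 of 9 probe sets.

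Gene symbols of the platform annotation were brought up to date through their gene IDs, using RefSeq on GRCm38.p6, for 34741 of 34945 probe sets. Probe sets with several genes (932) or none listed (9160) were left out. Values were compared on the log2 scale, elicited minus resident, with a floor of 82.2 and 1 probe set per gene, that of highest mean log2 signal. Differences are described against 2-fold, and no test was run with 1 array per group. The members, the 5 context lists and the 7 marker lists were chosen with earlier results of these data known. Named genes were all members, up to 3 genes with the highest and up to 3 with the lowest ratio in each context list among those at least 2-fold apart, and main receptors; others complete a count or describe a list and were picked after their values were seen. Scripts were tested on simulated data. The 12 alternatives changed scaling, floor, probe set choice and filter. Python 3.11.15, numpy 2.4.6, pandas 2.3.3 and statsmodels 0.14.6 were used.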

Additional observations from a re-analysis of the deposited data

How the results depend on the processing

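Of 115 ratios of single growth factor genes recomputed under the 12 alternatives, 106 moved by less than the SD between probe sets. The sign of the main value was kept by 104. Some of these could not move, since a changed filter alters no ratio of a kept gene. A raised floor likewise leaves a gene above it on both arrays unchanged, so the counts overstate how stable the ratios are. The number of growth factor genes at least 2-fold higher, 2 in the main setting, was 5 with equal medians, 4 with loess, 4 after quantile normalization, 1 with the floor at the 99th percentile, 1 with probe sets ending in _at only and 0 when genes had to be above the floor on both arrays, which drops Vegfc and Pdgfc. With probe sets ending in _at only, 1 gene, Igf1, was at least 2-fold lower (log2 ratio -1.43), against 0 in the main setting, and the mean of its probe sets was -0.77. Without a floor and with a pseudocount of 1, Vegfc had a log2 ratio of 5.35 and Pdgfc of 3.98.

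In the lists, lower counts on the hybridisation controls were 2 for other ligands and 6 for hypoxia genes, and proteases had 3 higher and 7 lower genes. With the floor at the 99th percentile, proteases had 3 higher and 2 lower genes and hypoxia genes 1 lower. When genes had to clear the floor on both arrays, the higher counts were 1 for receptors and 3 for proteases, and hypoxia genes had 1 lower. A pseudocount of 1 gave 4 higher receptors and 4 lower hypoxia genes. Lower proteases were 3 with quantile normalization and 3 with the floor as pseudocount, and higher hypoxia genes were 3 with probe sets ending in _at only. Of 144 counts, those of the lists and of the growth factor genes together, 123 stayed within 1.5 times the main count. Vegfb and Pdgfc have no probe set ending in plain _at. Hbegf was not above the floor at the 99th percentile. No paired analysis was possible because each group holds 1 array. Over all genes, where 924 were higher and 1357 lower, equal medians gave 1643 and 847, and the hybridisation controls 525 and 2367. Resident signals below the floor leave only bounds for Vegfc and Pdgfc. The median log2 ratio of the growth factor genes was 0.27 with the floor at the 99th percentile, 0.36 with the floor as pseudocount, and 0.25 both with probe sets ending in _at only and when genes had to clear the floor on both arrays.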
